A study of Mus musculus with 6 samples.

Results

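Genes of the transforming growth factor beta (TGF-beta) pathway were compared between CD36+ NK and CD36- NK cells of fibrotic mouse liver. They were the rows of the deposited table with the symbols Tgfb1, Tgfbr1, Tgfbr2, Tgfbr3, Smad2, Smad3, Smad7, Ski, Skil and Tgfbi, 10 of 57180 genes, and all 10 were among the 14761 genes with enough counts for a test. The cells came from livers of male C57BL/6J mice aged 6 to 8 weeks, in which fibrosis had been induced with carbon tetrachloride (CCl4, 2.5 ml/kg of a 20% solution in olive oil, 2 injections per week for 4 weeks). The livers were taken 48 h after the last injection. Natural killer (NK) cells, defined by the study as CD3- NK1.1+, were sorted by surface CD36, a fatty acid receptor, and each group held 3 libraries. Both groups came from CCl4-treated livers, and no library of untreated liver was analysed here. Neither the labels nor the methods state how many animals gave each library or whether a CD36+ NK and a CD36- NK sample came from the same liver, so the p-values measure the spread between these libraries.

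TGF-beta is secreted as a latent dimer and acts, once released, through a complex of a type II receptor and a type I receptor, which are both kinases. The type I receptor phosphorylates SMAD2 and SMAD3, which enter the nucleus with SMAD4 and control transcription together with other factors. SMAD7 blocks the receptor, and SKI and SKIL (also called SnoN) repress transcription at SMAD target genes. In liver, TGF-beta is known as a main signal that activates hepatic stellate cells, the cells that deposit collagen, and in NK cells it is known to restrain cytotoxicity and interferon gamma production.

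The sorted gene itself, Cd36, was higher in each library titled CD36+ NK, with 1232, 3569 and 2859 counts in replicates 1 to 3 against 186, 359 and 175 in CD36- NK (log2 fold change 3.27 ± 0.43 SE, adjusted p = 0.0061). The names of the sequencing libraries have a double hyphen after CD36 where the sample titles have a plus sign, so that they could be read the other way round, and the titles were followed. Libraries held 10292480 to 13787189 counts. Each of the 11 NK lineage markers examined was lower in the CD36+ NK group (median log2 fold change -2.42), and Klrb1c, the gene of NK1.1, had a mean of 88.9 against 489 CPM (counts scaled to a common library total). Summed over NK lineage markers, the CD36+ NK libraries held 1180 to 1441 CPM and the CD36- NK libraries 6129 to 7994 CPM. The macrophage and Kupffer cell markers summed to 6607 to 8914 against 2461 to 5726 CPM, with 4 of 9 tested markers changed, all upward (median log2 fold change 2.87). Lyz2, the most expressed of them, did not change (mean 3962 against 3710 CPM, log2 fold change 0.09, adjusted p = 0.882, edgeR) and held a large part of these sums. Clec4f and Vsig4, which mark Kupffer cells, had counts in too few libraries to be tested. B cell markers summed to 4387 to 4880 against 2965 to 3387 CPM, with 5 of 6 changed upward. Of these, Cd79a lay close to the threshold (adjusted p = 0.046, edgeR) and passed in 5 of 14 alternative analyses. Its call was lost with any 1 library left out (adjusted p 0.052 to 0.136, edgeR). Erythroid markers ran from 329 to 755.5 against 71.2 to 154 CPM, and sinusoidal endothelial markers from 212 to 306 against 154 to 169 CPM. Summed markers of monocytes, dendritic cells, T cells, platelets, neutrophils and liver-resident NK cells or ILC1 overlapped between the groups, although single markers among them changed. All 7 T cell markers were higher (median log2 fold change 2.34) and Cd4 and Cd8a passed, with Cd4 passing in 7 of 14 alternative analyses and its log2 fold change at 1.61 without replicate 1 of CD36+ NK. The call of Cd4 was lost under both blocks (adjusted p 0.101 with the replicate numbers and 0.053 with the name forms, edgeR) and without replicate 3 of CD36+ NK or any 1 library of CD36- NK (0.053 to 0.145). Xcr1 and Clec9a of dendritic cells and Ppbp and Pf4 of platelets rose, Cd14 of monocytes rose and Ccr2 fell, and Tnfsf10 of liver-resident NK cells fell. Stellate cell and hepatocyte markers were low but higher in each CD36+ NK library, at 2.94 to 5.57 against 0.488 to 0.846 CPM for stellate cells and 1.75 to 10.1 against 0.0884 to 0.846 CPM for hepatocytes. Pdgfrb, the 1 stellate marker that could be tested, rose 5.67-fold (adjusted p = 0.019, edgeR) and passed in 9 of 13 alternative analyses. Its call was lost without replicate 2 or 3 of CD36+ NK or replicate 1 or 3 of CD36- NK (adjusted p 0.055 to 0.082, edgeR), and its log2 fold change was 3.12 without replicate 2 of CD36- NK. Lrat was at 0 in all libraries. In such bulk samples, fewer cells of a type and less RNA per cell cannot be told apart, and the part of these markers in the results below was not tested.

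Of the 10 members, 2 changed between the groups. Tgfbr3, the gene of betaglycan, rose 7.90-fold in CD36+ NK, and Smad3 was 2.24-fold lower there. A gene counted as changed when its p from the quasi-likelihood test of edgeR, adjusted by Benjamini-Hochberg over all 14761 genes, was below 0.05, and 10.5% of all tested genes changed (5.07% upward and 5.44% downward). Both members also exceeded a fold change of 2, the study's second criterion for a differentially expressed gene (DEG), which 5.96% of tested genes met. An unadjusted p below 0.05 was found for 5 members, against 26.3% of all tested genes. The libraries of the groups did not overlap for 6 members, and for 32.8% of all tested genes. Among the 10 members, 6 had higher and 4 had lower fitted values in CD36+ NK, and their median log2 fold change was 0.09 against 0.01 over all tested genes.

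**Figure D1:**
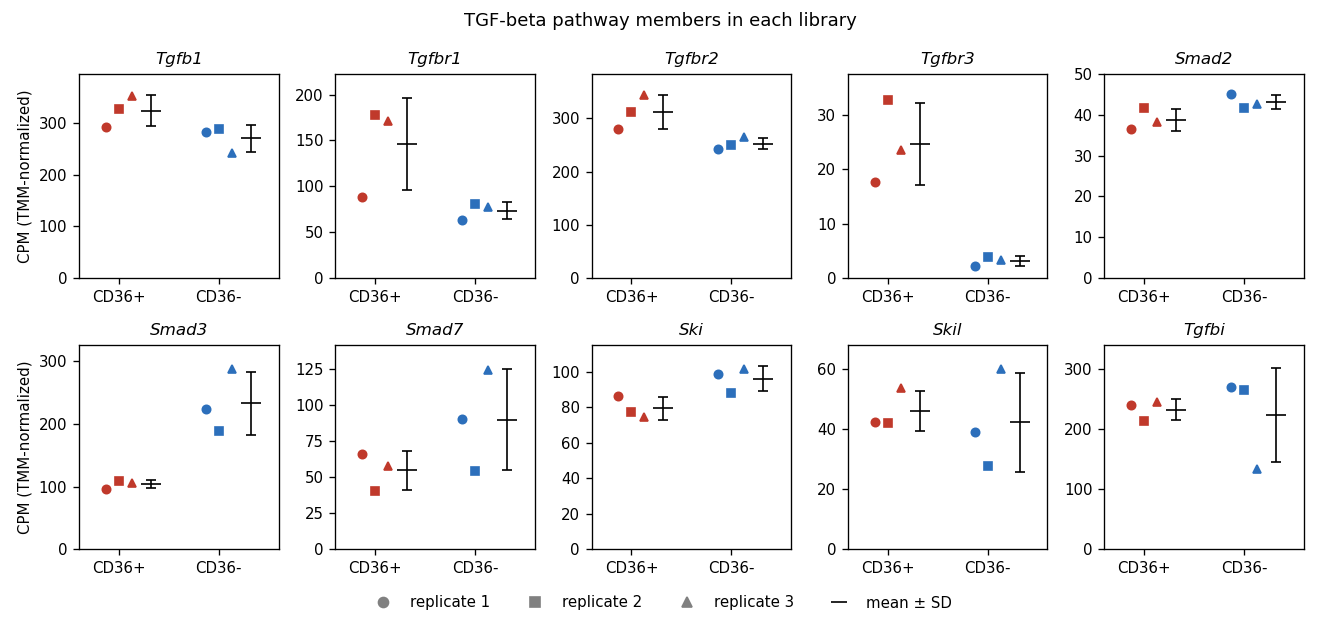
TMM-normalized CPM (vertical axis, from 0) of each of the 10 members in the 3 CD36+ NK (red) and 3 CD36- NK (blue) libraries, with circles, squares and triangles for replicates 1, 2 and 3 and the mean ± SD in black. The groups are widely separated for Tgfbr3 (17.6 to 32.6 against 2.15 to 3.89 CPM) and Smad3 (96.3 to 109.6 against 188 to 287 CPM), and overlap for Smad2, Smad7, Skil and Tgfbi.

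The ligand, Tgfb1 (ENSMUSG00000002603, plus strand of chr7:25386427-25404502), was measured at 292, 327 and 352 CPM in CD36+ NK replicates 1 to 3 and at 283, 288 and 241 CPM in CD36- NK replicates 1 to 3. The CD36+ NK libraries all lay above the CD36- NK libraries, although the closest values, 292 and 288 CPM, were nearly equal. The means were 324 ± 30.2 and 271 ± 25.7 CPM (SD, n = 3 each). The log2 fold change of 0.26 ± 0.11 (SE, 95% interval -0.01 to 0.53) did not pass the test (adjusted p = 0.206). The row of this gene was broken over lines in the deposited table and was rejoined. Coordinates are given as in the table, whose genome build is not named there. The submitters' processing notes name a rat assembly, mRatBN7.2, while the identifiers are those of mouse genes.

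The type I receptor, Tgfbr1 (ENSMUSG00000007613, plus strand of chr4:47353222-47414931), is the kinase that phosphorylates SMAD2 and SMAD3. It stood at 87.9, 177.9 and 171 CPM in CD36+ NK and at 63.0, 80.3 and 77.2 CPM in CD36- NK. Replicates 2 and 3 of CD36+ NK were far above all CD36- NK libraries, whereas replicate 1 lay only a little above them. The mean was 146 ± 50.2 CPM in CD36+ NK and 73.5 ± 9.19 CPM in CD36- NK (SD, n = 3 each). A log2 fold change of 0.99 ± 0.26 (SE, 95% interval 0.37 to 1.61) fell just short of the threshold after adjustment (adjusted p = 0.0572, edgeR). Without CD36+ NK replicate 1 the log2 fold change was 1.24 and passed (adjusted p = 0.0044, edgeR), and over the 14 alternative analyses the adjusted p ran from 0.0029 to 0.171, below 0.05 in 5 of them. Replicate 1 of each group carried a library name of another form than replicates 2 and 3, and the log2 ratio was 0.48 within the first form (1 library per group) and 1.15 within the second (2 per group). CD36+ NK replicate 1 also held the highest sums of T cell markers (301 CPM against 25.6 to 45.3 CPM in the other libraries) and of neutrophil markers (3572 against 655.5 to 2962 CPM), and their part in its Tgfbr1 level was not tested.

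The type II receptor, Tgfbr2 (ENSMUSG00000032440, minus strand of chr9:115913361-116004428), binds the ligand and activates the type I receptor. Its levels were 280.2, 312 and 344 CPM in CD36+ NK and 243, 249.7 and 265 CPM in CD36- NK. The CD36+ NK libraries again all lay above, by a margin smaller than their own range. With means of 312 ± 31.9 and 252.6 ± 11.1 CPM (SD, n = 3 each), the log2 fold change was 0.30 ± 0.10 (SE, 95% interval 0.06 to 0.55), which passed without adjustment but not with it (adjusted p = 0.112).

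Betaglycan, the product of Tgfbr3 (ENSMUSG00000029287, minus strand of chr5:107254436-107437495), is a coreceptor without kinase activity that presents TGF-beta to the type II receptor. Tgfbr3 had 198, 443 and 282 counts in CD36+ NK replicates 1 to 3 and 28, 44 and 34 counts in CD36- NK replicates 1 to 3, or 17.6, 32.6 and 23.4 against 2.15, 3.89 and 3.32 CPM. Every CD36+ NK library was several times above every CD36- NK library, and the CD36+ NK libraries themselves were spread widely, with replicate 2 highest. The means were 24.6 ± 7.55 and 3.12 ± 0.886 CPM (SD, n = 3 each), and the log2 fold change of 2.98 ± 0.31 (SE, 95% interval 2.26 to 3.71) had an adjusted p of 0.0029 (edgeR). An absolute log2 fold change larger than this was found for 0.495% of all tested genes. Counting error alone came to 15.1% to 18.9% of the value for CD36- NK, and for CD36+ NK it was 4.75% to 7.11%. The table lists 4 predicted genes within the span of Tgfbr3, none with more than 3 counts in any library, and their counts together came to 1.07% of those of Tgfbr3. No gene of the table overlaps the other 9 members. Tgfbr3 passed both thresholds in all 14 alternative analyses, with log2 fold changes from 2.72 to 3.17. Within the name forms, the log2 ratio was 3.03 for replicate 1 and 2.96 for replicates 2 and 3. The summed macrophage, B cell, erythroid, sinusoidal endothelial, stellate cell and hepatocyte markers were likewise higher in all CD36+ NK libraries, at the values given above, and their part in the rise of Tgfbr3 was not tested.

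Of the receptors, Tgfbr3 thus passed with a fold change of 7.90, and Tgfbr1 and Tgfbr2, with fitted folds of 1.98 and 1.24, did not. The ratio of Tgfbr1 to Tgfbr2 per gene length was 0.349, 0.634 and 0.553 in CD36+ NK and 0.288, 0.357 and 0.324 in CD36- NK. These values overlapped between the groups, and their log2 difference of 0.63 was not significant in an exact permutation test (two-sided p = 0.2, and p = 0.3 after adjustment over the 4 ratios examined). With 3 against 3 libraries such a test cannot go below 0.1.

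**Figure D2:**
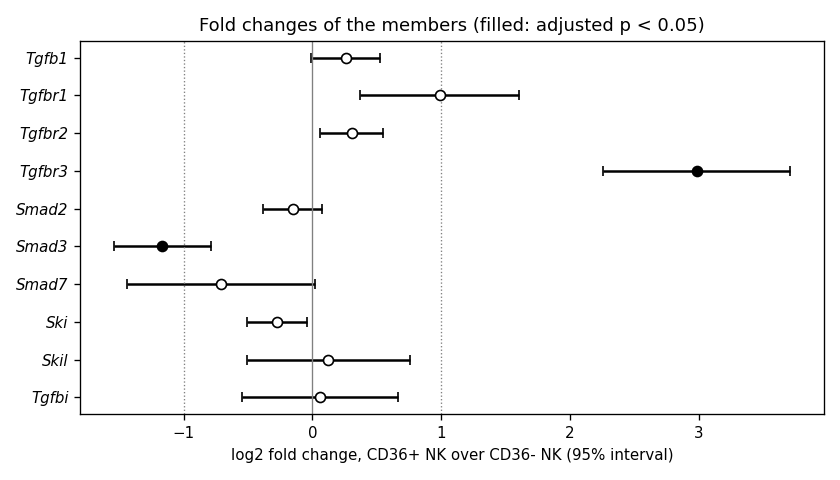
Log2 fold change of each member in CD36+ NK over CD36- NK (horizontal axis) with its 95% interval from edgeR's quasi-likelihood fit. Filled points passed an adjusted p of 0.05 and dotted lines mark a fold change of 2 in either direction. Tgfbr3 at 2.98 and Smad3 at -1.16 are filled, and the interval of Tgfbr1 (0.37 to 1.61) lies above 0 without a filled point.

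Of the receptor-regulated SMADs, Smad3 (ENSMUSG00000032402, minus strand of chr9:63554049-63665276) was lower in CD36+ NK and Smad2 did not pass the test. Smad3 encodes a SMAD that binds DNA directly. It was measured at 96.3, 109.6 and 105 CPM in CD36+ NK and at 223, 188 and 287 CPM in CD36- NK. The CD36+ NK libraries were close to each other and all lay well below the lowest CD36- NK library. The means were 104 ± 6.76 and 233 ± 49.8 CPM (SD, n = 3 each), with a coefficient of variation of 6.52% in CD36+ NK and 21.4% in CD36- NK. Smad3 fell by 1.16 on the log2 scale (± 0.16 SE, 95% interval -1.54 to -0.79, adjusted p = 0.0069, edgeR). The call held in all 14 alternative analyses, with log2 fold changes from -1.30 to -0.99. Without CD36- NK replicate 3, the library with the highest Smad3, the log2 fold change was -0.99 and no longer exceeded a fold change of 2. Within the name forms, the log2 ratio was -1.21 for replicate 1 and -1.14 for replicates 2 and 3. The summed NK lineage markers were also lower in all CD36+ NK libraries (1180 to 1441 against 6129 to 7994 CPM), and their part in the fall of Smad3 was not tested.

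Smad2 (ENSMUSG00000024563, plus strand of chr18:76374651-76444034) had 36.5, 41.7 and 38.2 CPM in CD36+ NK and 45.05, 41.6 and 42.6 CPM in CD36- NK. The groups met at replicate 2 of each, and the other CD36+ NK libraries were lower. Its log2 fold change was -0.15 ± 0.10 (SE, 95% interval -0.38 to 0.08, adjusted p = 0.384), so that a fall of more than 0.38 on the log2 scale lay outside the interval. Per gene length, the ratio of Smad3 to Smad2 was 4.83, 4.804 and 5.05 in CD36+ NK and 9.05, 8.27 and 12.3 in CD36- NK. No CD36+ NK ratio reached a CD36- NK ratio, and the CD36+ NK ratios were nearly equal. The mean log2 ratio was 2.29 ± 0.039 in CD36+ NK and 3.28 ± 0.301 in CD36- NK (SD, n = 3 each), a difference of -0.99 with an exact permutation p of 0.1 (two-sided), the smallest that 3 against 3 libraries allow, and 0.3 after adjustment over the 4 ratios.

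Smad7 (ENSMUSG00000025880, plus strand of chr18:75500600-75529006), the inhibitory SMAD whose transcription TGF-beta induces, was measured at 66.4, 40.1 and 57.9 CPM in CD36+ NK and at 90.6, 54.2 and 124 CPM in CD36- NK. The groups overlapped, because CD36- NK replicate 2 lay below both CD36+ NK replicates 1 and 3. The log2 fold change of -0.71 ± 0.31 (SE, 95% interval -1.44 to 0.02) did not pass (adjusted p = 0.202), and the coefficient of variation was 24.5% in CD36+ NK and 39.0% in CD36- NK. Relative to Smad3 per gene length, Smad7 stood at 0.661, 0.351 and 0.528 in CD36+ NK and at 0.390, 0.276 and 0.416 in CD36- NK, and these ratios overlapped (log2 difference 0.48, exact permutation p = 0.3, two-sided).

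The 2 corepressors did not pass the test. Ski (ENSMUSG00000029050, minus strand of chr4:155238532-155307049) had 86.6, 77.4 and 74.5 CPM in CD36+ NK and 99.0, 88.2 and 101.6 CPM in CD36- NK. All CD36- NK libraries lay above, with only 86.6 and 88.2 CPM between the closest ones. Its log2 fold change was -0.28 ± 0.10 (SE, 95% interval -0.51 to -0.04, adjusted p = 0.128). Skil (ENSMUSG00000027660, plus strand of chr3:31149207-31176726), which TGF-beta also induces, had 42.4, 42.0 and 53.6 CPM in CD36+ NK and 39.1, 27.7 and 60.1 CPM in CD36- NK. The CD36- NK libraries spread to both sides of the CD36+ NK libraries. The log2 fold change of Skil was 0.12 ± 0.27 (SE, 95% interval -0.51 to 0.76, adjusted p = 0.822), and its sign turned to -0.11 without CD36- NK replicate 2. The log2 ratio of Skil to Ski differed by 0.46 between the groups and overlapped (exact permutation p = 0.3, two-sided).

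The product of Tgfbi (ENSMUSG00000035493, plus strand of chr13:56757336-56787375) is an extracellular matrix protein named for its induction by TGF-beta. Tgfbi was at 239, 212 and 244 CPM in CD36+ NK and at 270.0, 264.5 and 132.5 CPM in CD36- NK. Replicates 1 and 2 of CD36- NK lay above all CD36+ NK libraries and replicate 3 far below them. The log2 fold change was 0.06 ± 0.26 (SE, 95% interval -0.54 to 0.66, adjusted p = 0.917), and it turned to -0.21 without CD36- NK replicate 3 (adjusted p = 0.30, edgeR). That library also had the lowest sum of macrophage markers, 2461 CPM against 5364 and 5726 CPM in the other CD36- NK libraries. Most of these sums was Lyz2, at 2052 against 4747 and 4330 CPM. Monocyte markers (1116 against 1823 and 1875 CPM) and neutrophil markers (1221 against 2962 and 1720 CPM) were lowest there too. So were the B cell, dendritic cell, T cell, erythroid and stellate cell sums, while the NK lineage sum was highest. The part of these markers in its Tgfbi level was not tested. Across the CD36- NK libraries, Smad3, Smad7, Ski and Skil were each highest in replicate 3 and lowest in replicate 2. The summed NK lineage markers had the same order there, at 7223, 6129 and 7994 CPM in replicates 1 to 3, and their part in it was not tested. In CD36+ NK, these 4 genes followed no common order.

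**Figure D3:**
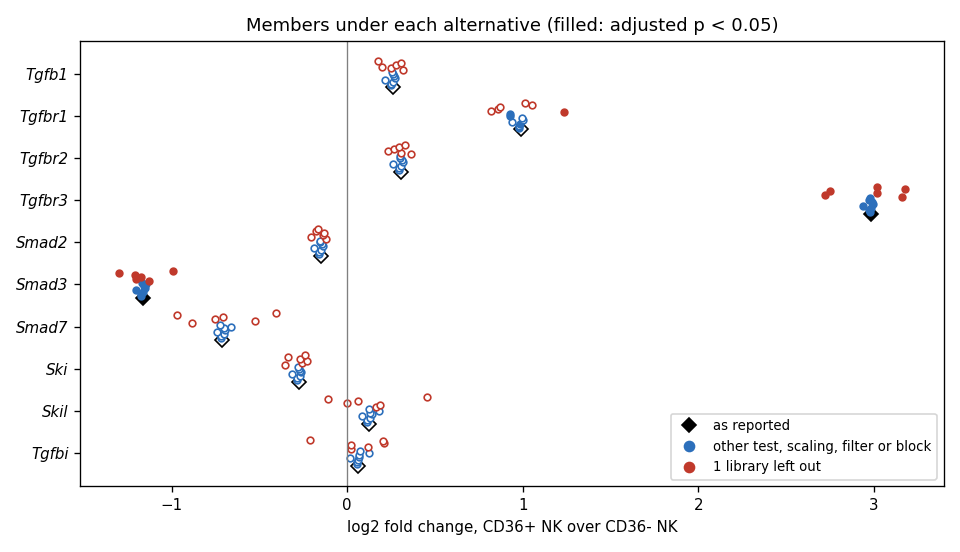
Log2 fold change of each member (horizontal axis) as reported (diamonds), under another test, scaling, filter or block (blue) and with 1 library left out (red), with filled symbols for an adjusted p below 0.05. Tgfbr3 and Smad3 are filled throughout, Tgfbr1 is filled in 5 of 14 alternatives, and Skil and Tgfbi cross 0 when 1 library is left out.

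Levels were compared between genes on the deposited FPKM scale, which divides a gene's fragments by its length and by the total of the library. In CD36+ NK, Tgfb1 was the highest member at a mean of 55.8 ± 3.68 FPKM (SD, n = 3), followed by Tgfbi at 40.6 ± 3.01 and Tgfbr2 at 30.2 ± 2.24 FPKM, and the ranges of these 3 genes did not touch. Smad3 at 17.8, Tgfbr1 at 15.6, Ski at 12.3 and Smad7 at 9.05 FPKM formed a middle group in which each gene's range overlapped that of its neighbour. Smad2 at 3.64, Tgfbr3 at 3.09 and Skil at 2.17 FPKM were lowest, again with overlapping neighbours. Such an order depends on the gene lengths that the FPKM imply, which were 20819 bases for Skil, 10481 for Smad2 and 7810 for Tgfbr3. By mean CPM, which ignores length, Skil (46.0) stood above Smad2 (38.8) and Tgfbr3 (24.6) in CD36+ NK. In CD36- NK, the upper group was Tgfb1 at 48.02 ± 5.28, Smad3 at 41.0 ± 8.08, Tgfbi at 40.1 ± 14.5 and Tgfbr2 at 25.2 ± 0.880 FPKM, each overlapping with the next. Ski at 15.2 and Smad7 at 15.1 FPKM overlapped as well. Tgfbr1 at 8.15, Smad2 at 4.16, Skil at 2.05 and Tgfbr3 at 0.405 FPKM then followed in this order without overlap between neighbours. Smad3 was thus among the highest members in CD36- NK and in the middle group in CD36+ NK, where its range (17.0 to 18.8 FPKM) lay below that of Tgfbr2 (28.0 to 32.4 FPKM). Tgfbr3 was the lowest member in CD36- NK (0.279 to 0.513 FPKM) and reached the range of Smad2 in CD36+ NK (2.28 to 4.11 against 3.48 to 3.92 FPKM).

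**Figure D4:**
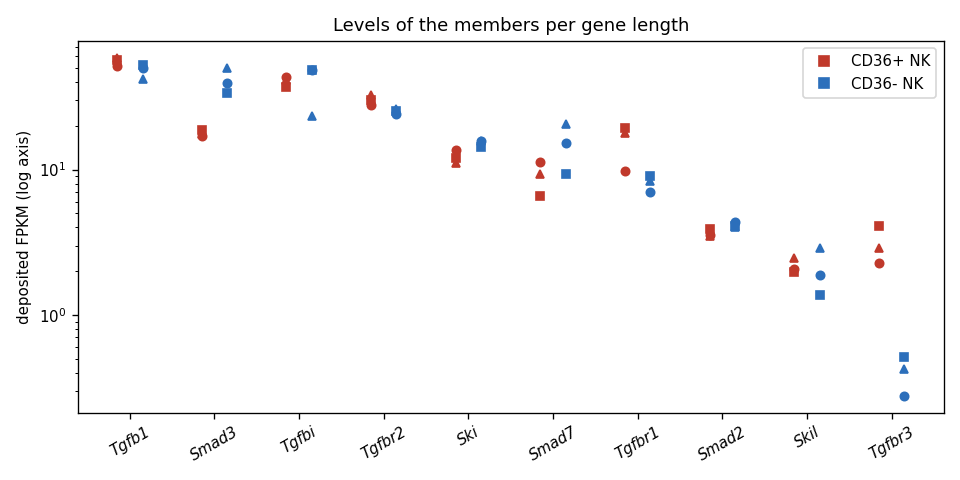
Deposited FPKM (log axis) of the 10 members in each library, ordered by level, with CD36+ NK in red and CD36- NK in blue and circles, squares and triangles for replicates 1, 2 and 3. Smad3 lies at 17.0 to 18.8 FPKM in CD36+ NK and at 33.9 to 49.7 FPKM in CD36- NK, and Tgfbr3 moves from the bottom of the set in CD36- NK to the level of Smad2 in CD36+ NK.

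The other genes of the pathway were taken from 8 lists by role and from the KEGG entries in the deposited table. Together these held 150 genes besides the members, of which 100 were tested and 17 changed (17% against 10.5% of all tested genes), 12 upward and 5 downward. Their median log2 fold change was 0.02. Of the 110 genes that KEGG assigns to TGF-beta signaling, 71 were tested, and 6 rose and 2 fell, with a median log2 fold change of 0.00. The 2 that fell were Smad3 and Ifng, the gene of interferon gamma (211, 218 and 493 CPM in CD36- NK against 38.6, 56.3 and 59.2 CPM in CD36+ NK, log2 fold change -2.58 ± 0.37 SE, adjusted p = 0.0080). All CD36- NK libraries exceeded all CD36+ NK libraries in Ifng, and the change passed both thresholds in all 14 alternative analyses. The KEGG genes that rose with the lowest p were Hfe, known for its role in iron balance, at 204 against 34.0 CPM (log2 fold change 2.58 ± 0.51 SE, adjusted p = 0.024, 9 of 14 alternatives), Acvr1b, and Rgmb, a coreceptor for bone morphogenetic proteins, at 11.5 against 4.16 CPM (1.47 ± 0.33 SE, adjusted p = 0.036, 10 of 14 alternatives). The log2 fold change of Hfe was 3.24 without CD36- NK replicate 2.

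Among the other ligands of the family, 6 of 12 were tested and 1 rose (edgeR), with a median log2 fold change of -0.27. Tgfb3, another TGF-beta gene, was called lower by DESeq2 but not by edgeR. Its mean was 3.87 CPM in CD36+ NK against 8.08 CPM in CD36- NK (log2 fold change -1.06 ± 0.28 SE, adjusted p = 0.054, edgeR). Gdf15, a stress-induced member of the family, had 8.99, 9.20 and 30.8 CPM in CD36+ NK against 0.922, 3.80 and 1.07 CPM in CD36- NK (log2 fold change 3.08 ± 0.72 SE, adjusted p = 0.039). One CD36+ NK library was far above the others, and Gdf15 passed in 8 of 14 alternative analyses. Its log2 fold change was 2.23 without CD36+ NK replicate 3, where the call was lost (adjusted p = 0.099, edgeR), and 4.02 without CD36- NK replicate 2. Of the genes of latency and activation, 10 of 14 were tested, 1 rose and 1 fell (edgeR), and the median was 0.52. DESeq2 also called Nrros higher, at 256 against 164 CPM (log2 fold change 0.65 ± 0.18 SE, adjusted p = 0.066, edgeR). Mmp14, a membrane-bound metalloproteinase that can release active TGF-beta, had 9.79, 11.8 and 7.40 CPM in CD36+ NK against 1.61, 2.39 and 2.34 CPM in CD36- NK (log2 fold change 2.19 ± 0.27 SE, adjusted p = 0.0048). Mmp14 was higher in each CD36+ NK library and passed in all 14 alternatives. Ltbp3, a latent TGF-beta binding protein, fell by 1.496 on the log2 scale (± 0.32 SE, adjusted p = 0.030), from 14.4 to 5.08 CPM, and passed in 10 of 14 alternatives.

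Of the 12 other receptors of the family, 9 were tested, 3 rose and 0 fell (edgeR), and the median was 0.51. No fall was found at an unadjusted p below 0.05 or with DESeq2 either. Acvr1b, a type I activin receptor that like TGFBR1 phosphorylates SMAD2 and SMAD3, had a mean of 64.2 against 47.1 CPM (log2 fold change 0.44 ± 0.10 SE, adjusted p = 0.035). Acvrl1, a type I receptor best known from endothelial cells, was at 33.2 against 11.2 CPM (1.56 ± 0.39 SE, adjusted p = 0.047), and Acvr2b, a type II activin receptor, at 1.25 against 0.403 CPM (1.61 ± 0.40 SE, adjusted p = 0.0495). These calls lay close to the threshold and passed in 7 of 14, 5 of 14 and 2 of 13 alternatives, and without a filter on low counts none of the list passed. The sinusoidal endothelial markers were higher in the same libraries, at the sums given above, and their part was not tested. Of the other SMADs, 4 of 5 were tested and 0 passed in edgeR or DESeq2, with 1 at an unadjusted p below 0.05, and the median was 0.03. That gene was Smad4, the shared partner of SMAD2 and SMAD3, which stood at 71.8 against 94.5 CPM (log2 fold change -0.40 ± 0.12 SE, adjusted p = 0.091).

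All 17 modulators of receptor and SMAD activity were tested, and 2 rose, with a median of 0.03. Zfyve9, whose product SARA holds SMAD2 and SMAD3 near the receptor, had 47.7, 87.8 and 88.1 CPM in CD36+ NK against 26.2, 40.7 and 17.3 CPM in CD36- NK (log2 fold change 1.41 ± 0.35 SE, adjusted p = 0.047), and it passed in 6 of 14 alternatives. Dab2, an adaptor between the receptors and SMADs, was at 4.13 against 0.483 CPM (3.06 ± 0.58 SE, adjusted p = 0.022) and passed in 10 of 13 alternatives. Of the nuclear partners of SMADs, 14 of 16 were tested and 2 fell, with a median of -0.17. They were Runx3 and Runx1, transcription factors that act with SMADs. Runx3 had 101.7, 97.3 and 93.0 CPM in CD36+ NK against 155, 145 and 176 CPM in CD36- NK (log2 fold change -0.70 ± 0.10 SE, adjusted p = 0.0079), and every CD36- NK library was higher. Runx1 stood at 81.9 against 116 CPM (log2 fold change -0.50 ± 0.11 SE, adjusted p = 0.034). Runx3 passed in all 14 alternatives and Runx1 in 7 of 14.

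The genes known to be induced by TGF-beta did not move one way. Of 15 on the list, 10 were tested, 2 rose and 1 fell, and the median log2 fold change was 0.04. Both integrin genes of tissue-resident lymphocytes changed, in opposite directions. Itgae, the gene of CD103, rose from 2.27 to 6.46 CPM (1.51 ± 0.34 SE, adjusted p = 0.036), passing in 7 of 14 alternatives. Cd4, Cd8a, Xcr1 and Clec9a rose beside it, and the part of T cell and dendritic cell markers in the level of Itgae was not tested. Itga1, the gene of CD49a, had 9.70, 9.56 and 8.65 CPM in CD36+ NK against 17.5, 18.8 and 15.7 CPM in CD36- NK (log2 fold change -0.90 ± 0.14 SE, adjusted p = 0.00996), passing in all 14. Of the genes induced by bone morphogenetic proteins, 3 of 7 were tested and 0 passed in edgeR, with 2 at an unadjusted p below 0.05 and 1 (Id2) called by DESeq2, and the median was 0.72. Id2, which NK cells also need for their development, stood at 249 against 374 CPM (log2 fold change -0.59 ± 0.20 SE, adjusted p = 0.116). Among the changed pathway genes named, Mmp14, Runx3, Itga1 and Ifng passed with each library left out. When replicate 2 of CD36+ NK, or replicate 1 or 3 of CD36- NK, was left out, Gdf15, Ltbp3, Acvr1b, Acvrl1, Acvr2b, Dab2, Zfyve9, Runx1, Itgae, Hfe and Rgmb did not pass (adjusted p 0.0547 to 0.152, edgeR).

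**Figure D5:**
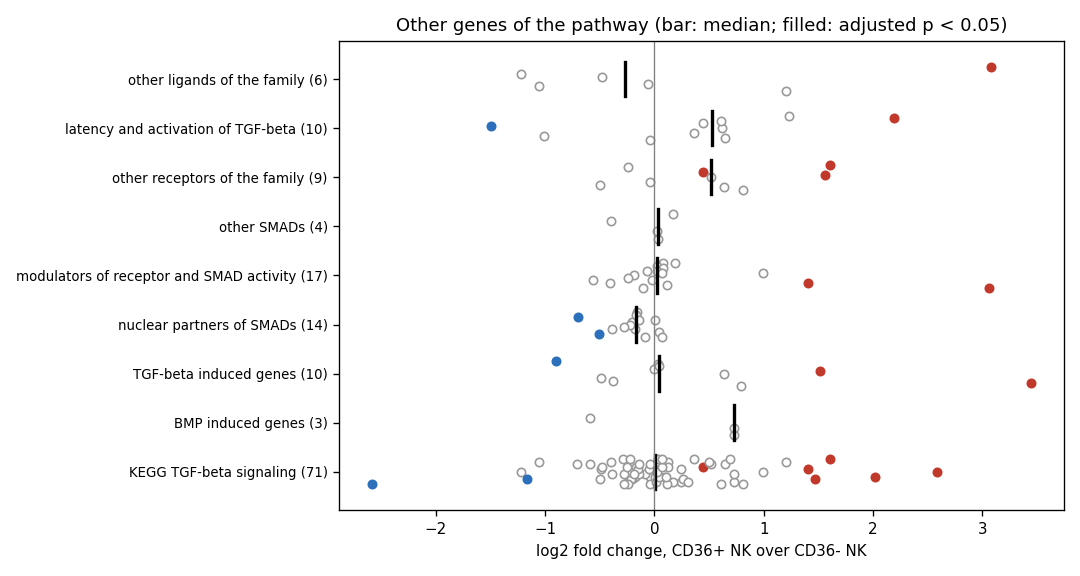
Log2 fold change in CD36+ NK over CD36- NK (horizontal axis) of each tested gene of the pathway lists, with the number tested in parentheses and the median as a black bar. Filled red points rose and filled blue points fell at adjusted p below 0.05. Medians lie between -0.27 and 0.72, and changed genes appear on both sides of 0 in the latency, TGF-beta induced and KEGG lists.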

How the data were processed

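RNA of 3 CD36+ NK and 3 CD36- NK libraries was sequenced. After read filtering (Seqtk) and mapping (HISAT2 2.0.4), StringTie counts per gene were deposited by the authors without normalization. Beside the counts, the authors deposited FPKM values, which matched counts over gene length and library total within 1% in 100% of the 7439 genes above 200 counts in each library. Lines of 2 genes (Tgfb1 and Tnf) were broken and were rejoined. Counts were tested with edgeR 4.0.16 in R 4.3.3 (filterByExpr, minimum count 10; TMM; quasi-likelihood, no block), with Benjamini-Hochberg adjustment over 14761 genes. DEGs also needed a fold change above 2. SE is the absolute log2 fold change over the square root of F. Ratios used exact permutation tests (scipy 1.17.1). Library totals ran from 10292480 to 13787189 counts and members' counts from 28 to 4450. Counting errors exclude the spread between libraries.

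The members and the pathway and marker lists were chosen with earlier results of these data known. The genes named are the members, Cd36, Klrb1c, per pathway list up to 3 changed genes per direction by lowest p, and the most expressed gene of each marker list. Smad4, Id2, Tgfb3, Nrros and marker genes outside this rule were named after their values were seen. One gene that meets this rule is not reported here by name. Alternatives were DESeq2 1.42.0, other scalings and filters, blocks, and each library left out. The edgeR script was tested on simulated counts for 14761 genes with 200 changed. Replicates differed by more than sampling noise (chi-square per degree of freedom 14.8 to 29.2), so none was merged.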

Additional observations from a re-analysis of the deposited data

How the results depend on the processing

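Over 140 alternative values of the 10 members, 133 kept their direction and their side of the adjusted p threshold of 0.05, 5 gained it and 2 changed sign. All 5 gains were Tgfbr1, whose adjusted p was 0.0029 with DESeq2, 0.048 with upper-quartile scaling, 0.046 with the replicate block, 0.018 with the library name form as a block and 0.0044 without CD36+ NK replicate 1. Both sign changes came from leaving out 1 library: Skil was -0.11 without CD36- NK replicate 2 (range over omissions -0.11 to 0.45), and Tgfbi was -0.21 without CD36- NK replicate 3 (-0.21 to 0.21). Leaving out 1 library gave 2 to 3 changed members and 1 to 3 DEGs among them, with 1 (Tgfbr3) without CD36- NK replicate 3. Of 416 values of the other named genes, 105 lost the threshold, 2 gained it and 4 changed sign, namely Lyz2 at -0.20 without CD36- NK replicate 3 (-0.20 to 0.30) and S100a9 (-1.79 to 0.17) at 0.06, 0.02 and 0.17 without CD36+ NK replicate 2, CD36+ NK replicate 3 and CD36- NK replicate 1.

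Changed genes numbered 1552 of all tested genes and 525 to 1750 when 1 library was left out, with 525, 607, 611 and 666 without CD36+ NK replicates 2 and 3 and CD36- NK replicates 1 and 3. DEGs numbered 880, and 417 to 1160 with 1 library left out, with 418, 451, 417 and 431 for the same omissions. Ratios within libraries kept their sign, at 0.45 to 0.88 for Tgfbr1 to Tgfbr2, -1.11 to -0.82 for Smad3 to Smad2, 0.28 to 0.74 for Smad7 to Smad3 and 0.25 to 0.71 for Skil to Ski (log2). Without a filter on low counts, changed genes numbered 0 among the other ligands, 0 among the other receptors, 1 among the modulators, 1 among the nuclear partners and 4 among the KEGG genes. The cause of these shifts was not tested.

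The sample titles number the replicates alike in both groups, while the library names number CD36- NK replicates 1 to 3 as 6, 1 and 2. Deviations from the group means correlated at 0.31, 0.05 and -0.08 between same-numbered libraries, and replicate 1 alone correlated best with its own number in the other group, so the numbers were not taken as pairs. CD36+ NK replicates 2 and 3 correlated best with CD36- NK replicates 3 and 2 (0.12 and 0.25). The libraries that share a number in their names, CD36+ NK replicates 1 and 2 with CD36- NK replicates 2 and 3, correlated at -0.25 and 0.12, and no other pairing was fitted. With the replicate block, 907 genes changed and 560 were DEGs, and among the members Tgfbr3 and Smad3 stayed called and Tgfbr1 passed. Of the pathway genes named, Gdf15, Ltbp3, Acvr1b, Acvrl1, Acvr2b, Zfyve9, Runx1, Itgae and Hfe lost their call there (adjusted p 0.051 to 0.117, edgeR). Mmp14, Dab2, Rgmb, Runx3, Itga1 and Ifng kept it. With the library name form as a block, Acvrl1, Acvr2b, Zfyve9 and Itgae lost it (adjusted p 0.051 to 0.066, edgeR). Depth limits Tgfbr3 in CD36- NK, where it rests on 28 to 44 counts, and Acvr2b and Dab2.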
